A study of Mus musculus with 9 samples.

Results

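The genes described here are 59 mouse genes that encode the kinetochore, the spindle assembly checkpoint and other parts of the mitotic machinery. They were taken by name from a list that was chosen with earlier results of these data known. They were found among the 55471 gene identifiers counted in each library. All 59 passed the filter on low counts and were tested among 14918 genes. The lowest count of any of them in any library was 22.

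When a cell divides, the kinetochore is built on centromeric chromatin and ties each chromosome to spindle microtubules. The spindle assembly checkpoint reads unattached kinetochores and holds back the anaphase-promoting complex, the ubiquitin ligase whose action frees separase to cut cohesin. Most of these genes are transcribed in waves that peak in G2 and mitosis, and in CD8+ T cells they are known as part of the proliferation programme of clonal expansion after infection.

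The study compared OT-I CD8+ T cells, which carry a T cell receptor for an ovalbumin peptide, in a control form and with 2 enzymes of ketone body breakdown, Bdh1 and Oxct1, targeted. The control cells (Bdh1-WT;shCtrl, 4 libraries) carried wild-type Bdh1 and a short hairpin RNA against firefly luciferase. The DKO cells (Bdh1-KO;shOxct1, 5 libraries) were knocked out for Bdh1, the mitochondrial enzyme that oxidises beta-hydroxybutyrate, and carried a hairpin against Oxct1, the transferase that activates acetoacetate. Both groups were stimulated in culture with antibodies to CD3ε and CD28 for 24 h, transduced, kept in IL-2 at 50 U/mL, sorted for the Ametrine reporter and given to naive C57BL/6 (CD45.1) hosts, which later received LmOVA, the bacterium Listeria monocytogenes engineered to make ovalbumin. On day 7 of infection, donor cells were sorted from the spleen as CD45.2+ and Ametrine+. The hairpin lowers Oxct1 and does not delete it, and with no group changed in 1 gene alone the parts of Bdh1 and Oxct1 cannot be told apart. The labels do not say whether libraries of a group came from separate mice, so p-values measure only the spread between these libraries, which may be technical.

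The libraries held 45205993 to 59853080 counts in genes. Oxct1 was measured at 63.5 ± 7.10 CPM (a gene's counts scaled to 1000000 counts in genes; SD, n = 4) in control and 5.14 ± 0.361 (SD, n = 5) in DKO, and Bdh1 at 30.6 ± 3.71 and 10.6 ± 1.21 CPM. Neither gene overlapped between the groups, and both were lower in the libraries labelled DKO. Control replicates 1 and 3 stood apart before any comparison. Control replicate 1 lay at -79.1 on the first principal component and had 16.7% unmapped reads against 10.3% to 12.3% in the other 8 libraries, while the second component set control replicate 3 apart, at -70.2. All 8 CD8 T cell markers were above 1 CPM on average, summing to 6344 to 8836 CPM in control and 5858 to 6397 in DKO, and Cd8b1 fell in DKO. The 13 myeloid markers, of which 7 averaged above 1 CPM, summed to 249.1 to 298.5 CPM in control and 198.3 to 213.3 in DKO. These sums did not overlap. Most of each sum came from Cst3, Ctss, Itgam and Cd68, with means of 97.1, 81.7, 58.9 and 29.3 CPM in control. Their DKO means were 90.6, 51.1, 37.9 and 16.7 CPM. Of these, Ctss and Cd68 fell in DKO by the test used below, as Cd8b1 did. Lyz2 (2.45 and 5.83 CPM) and Csf1r (1.83 and 2.36) averaged higher in DKO, and Adgre1 (1.03 and 1.01) hardly differed. The 10 B and plasma cell markers summed to 179.8 to 261.5 and 187.4 to 208.4 CPM, with Pax5 at 0 counts in every library, which allows up to 0.00647 CPM at a floor of 3 counts over all libraries. Sums for 12 erythroid and platelet markers were 9.98 to 41.8 and 12.1 to 37.3 CPM, for 4 CD4 T cell markers 30.4 to 39.1 and 34.4 to 46.0, and for 3 NK markers 59.7 to 85.1 and 47.5 to 72.4. The part of these other cells in the results below was not tested.

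The mitotic genes were higher in DKO cells as a group. Of the 59, 31 rose (52.5%) and 0 fell, by edgeR's quasi-likelihood test at a Benjamini-Hochberg adjusted p under 0.05 over all genes tested. Among all 14918 tested genes 1.32% rose and 1.51% fell. As the list was chosen with earlier results of these data known, these shares describe it and do not test it. DESeq2 and limma-voom also called 0 members lower. The median log2 fold change was 1.06 over the members and -0.01 over all genes, with members ranging from -0.27 (Cenpq) to 2.26 (Espl1). The fold was at least 2 in 26 of the 31 genes that rose, and 55 of 59 had a positive log2 fold change. In bulk RNA, fewer cells of a type and less RNA per cell cannot be told apart, so these values do not separate a larger share of dividing cells from more message in each. The count depended on single libraries: it was 9 without control replicate 4, 17 without DKO replicate 3 or DKO replicate 4, 18 without DKO replicate 1 and 19 without control replicate 3. With both control libraries that stood apart left out, an alternative added after seeing the data, it was 16. Calls over all tested genes shrank in these fits too, with 80 to 163 genes higher in DKO against 197 when every library was kept. The members' median log2 fold change hardly moved in them, at 1.05 to 1.10 beside 1.06. Why calls were lost was not tested.

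For 37 members (62.7%) every DKO library lay above every control library, against 4.32% of all tested genes, and no member showed the opposite, against 4.36%. Mad2l1, Kntc1 and Knl1 rose although their groups overlapped. In 9 further genes the groups did not overlap but the test was not passed: Sgo2a, Cenpa, Cenpm, Cenpp, Ska1, Espl1, Prc1, Anln and Ncapg.

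**Figure D1:**
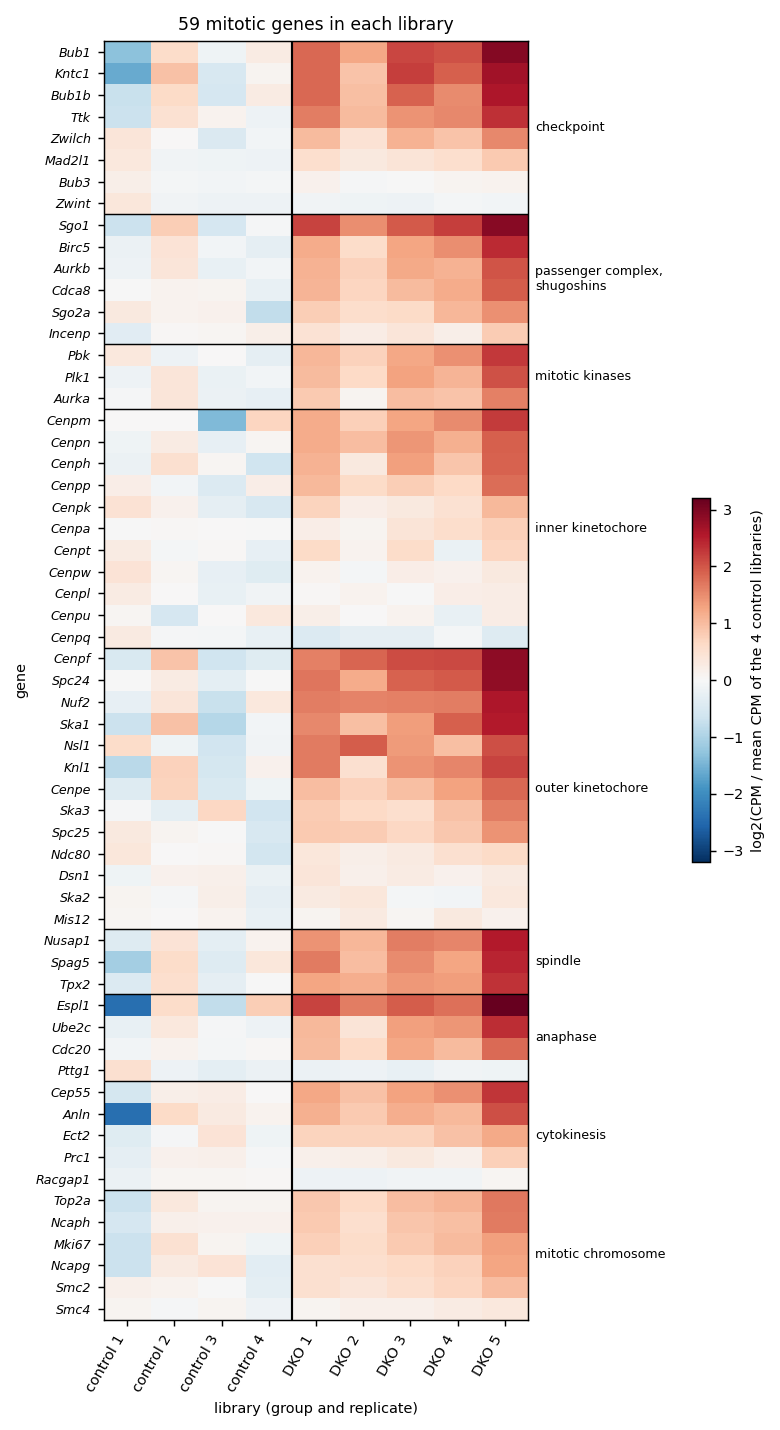
Each row is 1 of the 59 genes, grouped by role, and each column 1 library (4 control, 5 DKO); colour is log2 of CPM over the mean CPM of the 4 control libraries. The DKO columns are mostly red, with DKO replicate 5 the deepest, while Zwint, Pttg1, Racgap1, Cenpq, Bub3 and Cenpu stay near white.

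The promoters of the members were read from RefSeq (GRCm38.p6) as windows from 250 bases before to 50 bases after each annotated start. Late cell cycle genes are known for 2 short promoter elements, the cell cycle genes homology region (CHR), which the MuvB complexes bind, and the CCAAT box bound by NF-Y. The stretches below set large fold changes beside small ones. Espl1, Cenpf and Bub1 have the largest log2 fold changes among members whose printed stretch holds a CHR word. Bub3, Cenpu and Racgap1 are among the least changed, and no CHR word was required of them. The display therefore cannot link the word to the fold change. Sgo1 (log2 change 2.22) is not shown because its CHR word, which begins 27 bases after the start, runs past the printed stretch. Each runs from 100 bases before to 30 after the start, 5′ to 3′ on the gene's strand, and capitals mark the CHR words (TTTGAA or TTCGAA) and the CCAAT word on either strand.
Espl1 (chr15:102296193-102296322, plus strand): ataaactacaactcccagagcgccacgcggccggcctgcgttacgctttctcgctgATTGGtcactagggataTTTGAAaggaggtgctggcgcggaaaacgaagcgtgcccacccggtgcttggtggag
Cenpf (chr1:189688057-189688186, minus strand): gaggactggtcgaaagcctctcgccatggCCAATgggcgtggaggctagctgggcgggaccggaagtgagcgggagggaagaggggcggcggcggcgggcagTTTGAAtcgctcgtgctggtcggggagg
Bub1 (chr2:127831830-127831959, minus strand): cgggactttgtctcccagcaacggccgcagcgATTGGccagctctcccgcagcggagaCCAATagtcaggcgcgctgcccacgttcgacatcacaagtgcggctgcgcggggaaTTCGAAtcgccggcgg
Bub3 (chr7:131560270-131560399, plus strand): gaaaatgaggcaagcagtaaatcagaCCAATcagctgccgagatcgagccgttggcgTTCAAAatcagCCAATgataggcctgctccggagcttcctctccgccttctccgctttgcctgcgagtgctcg
Cenpu (chr8:46551969-46552098, plus strand): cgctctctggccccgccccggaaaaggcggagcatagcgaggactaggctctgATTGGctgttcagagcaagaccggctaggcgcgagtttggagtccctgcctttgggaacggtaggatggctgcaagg
Racgap1 (chr15:99651627-99651756, minus strand): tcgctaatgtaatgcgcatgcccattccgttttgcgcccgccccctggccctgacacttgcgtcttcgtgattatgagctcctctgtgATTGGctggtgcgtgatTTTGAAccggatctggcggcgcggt
In Espl1 the CHR word begins 27 bases before the start with a reversed CCAAT word 44 bases before it. Cenpf and Bub1 carry theirs 2 and 14 bases after the start. Bub3 and Racgap1, with log2 fold changes of 0.07 and -0.09, hold both words too, 43 bases before and 5 bases after the start for the CHR word. Cenpu has a CCAAT word and no CHR word in the stretch shown. A match of letters is a description of the sequence and not a bound site.

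Over all the members, 50 of 59 had at least 1 window, 57 windows in all. A CHR word on either strand was in 36 of 57 windows (63.2%) and in 19.2% of the 32851 windows of all genes. The CCAAT word was in 42 windows (73.7%, all genes 37.4%), and both words were in 30 (52.6%, all genes 7.52%). One of the E2F-like words GGCGGGAA, TTTGGCGC and TTTCCCGC was in 6 windows (10.5%, all genes 3.21%). The CHR and CCAAT words shared bases in 3 member windows. Among windows of the genes that rose, 21 of 27 (77.8%) held a CHR word, against 15 of 30 (50%) among the members that did not pass the test. For CCAAT the shares were 70.4% and 76.7%, and for the E2F-like words 3.7% and 16.7%. Some genes had more than 1 window. Counted by gene, a CHR word was held by 19 of 25 that rose and 13 of 25 that did not pass. A CCAAT word was held by 18 of 25 in each group, and an E2F-like word by 1 and 5. The differences between those groups of members were not tested. Birc5, Cenpe, Mad2l1, Ncaph, Nuf2 and Nusap1 rose with no CHR word in their windows.

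The checkpoint genes held some of the largest rises and a pair of flat members. Bub1, Bub1b, Ttk, Kntc1, Zwilch and Mad2l1 rose (6 of 8), with a median log2 fold change of 1.36 over the group, while Bub3 and Zwint did not pass the test. Bub1 (chr2:127801122-127831865, minus strand, GRCm38) encodes the kinase that recruits checkpoint proteins to the kinetochore. Its level was 0.875, 3.23, 1.97 and 2.59 CPM in control replicates 1 to 4 and 7.72, 5.08, 9.57, 8.90 and 16.6 CPM in DKO replicates 1 to 5. Every DKO library was above every control library, with DKO replicate 5 the highest. On the log2 scale Bub1 rose by 2.14 with an SE of 0.40 (adjusted p = 0.0177). Here and below, each adjusted p comes from the quasi-likelihood F-test of edgeR, with the Benjamini-Hochberg method over all genes tested.

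Bub1b encodes BubR1, which with Mad2, Bub3 and Cdc20 forms the mitotic checkpoint complex. Its control values were 3.97, 9.87, 4.45 and 7.74 CPM and its DKO values 23.2, 12.6, 23.9, 18.6 and 38.9 CPM (log2 change 1.85 with SE 0.35, adjusted p = 0.0188). The groups did not overlap, and DKO replicate 2 was the lowest of its group. Ttk, the Mps1 kinase that starts checkpoint signalling, went from 1.15, 2.58, 1.99 and 1.65 CPM to 5.70, 3.69, 4.96, 5.31 and 9.33 CPM (log2 change 1.66 with SE 0.30, adjusted p = 0.0158), again without overlap.

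Kntc1 and Zwilch encode subunits of the RZZ complex, which brings Mad1 and dynein to unattached kinetochores. Kntc1 was measured at 0.469, 2.72, 0.995 and 1.51 CPM in control and 5.13, 2.66, 6.63, 5.35 and 9.10 CPM in DKO. DKO replicate 2 lay just under control replicate 2, the only overlap. The log2 fold change was 2.01 (SE 0.46, adjusted p = 0.0428). Zwilch rose by 1.06 (SE 0.24, adjusted p = 0.0406), from 1.73 ± 0.413 to 3.56 ± 0.950 CPM. It overlaps Lctl on the other strand, and counts summed over the strands were 1.28 times its unstranded count, so its level is uncertain. Mad2l1, the Mad2 that inhibits Cdc20, had the smallest rise of all 31, from 29.8 ± 5.23 to 43.3 ± 6.08 CPM (log2 change 0.56 with SE 0.13, adjusted p = 0.0426).

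Bub3, the WD-repeat partner of Bub1 and BubR1, had the log2 fold change nearest to 0 of these genes. It was measured at 223.2, 187.6, 182.7 and 184.7 CPM in control and 212.7, 190.9, 192.7, 207.9 and 209.3 CPM in DKO. The groups overlapped, with control replicate 1 the highest library of all (log2 change 0.07 with SE 0.08, adjusted p = 0.691). Zwint, which links the RZZ complex to Knl1, was at 118.5 ± 23.4 and 109.8 ± 3.23 CPM (log2 change -0.09 with SE 0.10, adjusted p = 0.711), and control replicate 1 at 153.5 CPM set its control spread. Without that library its log2 fold change was 0.02.

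Leaving out control replicate 4 alone ended the calls of Bub1, Bub1b and Ttk (adjusted p = 0.0527, 0.0528 and 0.06), and no other single library did. Kntc1 kept its call in 3 of the 9 fits that each left out 1 library, Zwilch in 2 and Mad2l1 in 1, with adjusted p up to 0.11, 0.105 and 0.121. Those fits were the ones without control replicate 1, control replicate 2 or DKO replicate 2 for Kntc1, without control replicate 1 or DKO replicate 2 for Zwilch, and without control replicate 1 for Mad2l1.

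In the chromosomal passenger complex, which corrects wrong microtubule attachments from the inner centromere, 3 of 4 genes rose. Of Aurkb, Birc5, Cdca8 and Incenp, the scaffold gene Incenp did not pass the test, and of the shugoshins, which protect centromeric cohesion, Sgo1 rose and Sgo2a did not pass. Sgo1 (chr17:53674786-53689333, minus strand, GRCm38) was measured at 1.39, 3.85, 1.53 and 2.19 CPM in control and 9.99, 6.33, 8.71, 10.3 and 17 CPM in DKO. The lowest DKO library was above the highest control library. Its rise of 2.22 on the log2 scale (SE 0.35, adjusted p = 0.00823) was the largest of the genes that rose.

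Birc5 encodes survivin, which docks the passenger complex on the centromere. Control libraries held 9.73, 15.1, 10.5 and 9.01 CPM and DKO libraries 25.1, 16.6, 26.7, 30.9 and 57.9 CPM (log2 change 1.51 with SE 0.31, adjusted p = 0.0296). DKO replicate 5 stood above the other 4 DKO libraries, and the groups did not overlap. Aurkb, the complex's kinase, rose by 1.31 (SE 0.24, adjusted p = 0.0164) and Cdca8, its borealin subunit, by 1.26 (SE 0.22, adjusted p = 0.0132).

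Incenp was more abundant and differed less: 46.9, 62.6, 63.4 and 69.3 CPM in control against 82.9, 70.9, 79.8, 68.5 and 107 CPM in DKO. DKO replicate 4 lay under control replicate 4, so the groups overlapped (log2 change 0.44 with SE 0.15, adjusted p = 0.175). Sgo2a was at 1.25 ± 0.360 and 2.39 ± 0.653 CPM (log2 change 0.95 with SE 0.27, adjusted p = 0.0959), and it overlaps Kctd18 on the other strand, with a strand-summed count 3.2 times the unstranded one. The calls of Aurkb and Cdca8 ended without control replicate 4 (adjusted p = 0.06 and 0.0528). Birc5 kept its call in 4 of 9 such fits and lost it without control replicate 3, control replicate 4, DKO replicate 1, DKO replicate 3 or DKO replicate 4 (adjusted p = 0.0526 to 0.0958). Sgo1 kept its call in all 9.

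Among the mitotic kinases, Plk1 and Pbk rose and Aurka did not pass the test. Pbk, a kinase active in mitosis, was measured at 3.95, 2.79, 3.12 and 2.54 CPM in control and 6.43, 5.21, 7.31, 8.55 and 14.8 CPM in DKO, with no overlap (log2 change 1.46 with SE 0.29, adjusted p = 0.0221). Plk1, which acts from mitotic entry to cytokinesis, rose from 5.87 ± 1.23 to 14.4 ± 5.74 CPM (log2 change 1.30 with SE 0.26, adjusted p = 0.0261). Plk1 overlaps Gm44985 on the other strand, with a strand-summed count 1.23 times the unstranded one. Aurka, the centrosomal Aurora kinase, was at 6.4, 8.65, 5.80 and 5.48 CPM in control and 11.7, 7.03, 13.1, 12.4 and 20 CPM in DKO. DKO replicate 2 lay within the control range, and the log2 fold change was 0.98 (SE 0.26, adjusted p = 0.0752). Without DKO replicate 2 the adjusted p was 0.0253. Pbk lost its call without control replicate 2, control replicate 4 or DKO replicate 4 (adjusted p up to 0.0745), and Plk1 without control replicate 3, control replicate 4 or DKO replicate 3 (up to 0.081).

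The inner kinetochore was the group with the fewest calls. Of its 11 genes, Cenpn alone rose (9.09%, all genes 1.32%), and the median log2 fold change was 0.43. The log2 fold change was positive in 10 of the 11, and 7 had an unadjusted p under 0.05 by the same test. In 4 of the 11 (36.4%, all genes 4.32%) every DKO library lay above every control library. Cenpn, which reads the CENP-A nucleosome, went from 2.43 ± 0.392 to 6.26 ± 1.75 CPM (log2 change 1.37 with SE 0.22, adjusted p = 0.00823) and kept its call in all 9 fits that left out a library. The other 10 counted with it are Cenpa, the centromeric histone itself, and 9 further members of the constitutive centromere-associated network to which Cenpn belongs, the layer that stays on the centromere through the cell cycle.

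Cenpm had the largest value of the group but a wide control spread: 1.43, 1.45, 0.531 and 2.29 CPM in control and 3.24, 2.41, 3.42, 4.06 and 6.73 CPM in DKO. The groups did not overlap, yet DKO replicate 2 came close to control replicate 4 (log2 change 1.48 with SE 0.39, adjusted p = 0.0772). Cenpa lay between 52.4 and 54.4 CPM in the 4 control libraries and between 56.3 and 89.9 CPM in DKO, also with no overlap (log2 change 0.43 with SE 0.13, adjusted p = 0.104). Cenph (log2 change 1.21 with SE 0.32, adjusted p = 0.0772) and Cenpp (1.04, SE 0.30, adjusted p = 0.104) did not pass either, and without DKO replicate 2 Cenph did (adjusted p = 0.0471).

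Cenpu was the least changed: 2.09, 1.36, 1.99 and 2.52 CPM in control and 2.25, 2.00, 2.16, 1.70 and 2.35 CPM in DKO. The libraries of both groups were interleaved (log2 change 0.08 with SE 0.21, adjusted p = 0.883). Cenpu overlaps Primpol on the other strand, and its strand-summed count was 9.08 times the unstranded count used here, so its level is uncertain. With summed strands its log2 fold change was -0.09. Cenpk (0.60), Cenpt (0.41), Cenpw (0.17), Cenpl (0.13) and Cenpq (-0.27) had adjusted p of 0.238 to 0.662. The strand-summed count was 2.28 times the unstranded one for Cenpk and 1.7 times for Cenpp.

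The outer kinetochore, the microtubule-binding face, held 7 calls among 13 genes. The NDC80 complex grips the microtubule as a tetramer, and Nuf2, Spc24 and Spc25 rose while Ndc80 itself did not pass. Spc24 was measured at 2.86, 3.47, 2.32 and 2.87 CPM in control and 9.45, 6.53, 10.7, 11.2 and 20.5 CPM in DKO. Every DKO library was above every control library (log2 change 2.03 with SE 0.30, adjusted p = 0.00517, the lowest of the members).

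Nuf2 was at 2.82, 4.39, 2.08 and 4.24 CPM in control and 10.6, 10.2, 10.4, 10.5 and 20.2 CPM in DKO. DKO replicates 1 to 4 were nearly equal and replicate 5 stood well above them (log2 change 1.87 with SE 0.28, adjusted p = 0.00648). Spc25 rose by 0.96 (SE 0.19, adjusted p = 0.0219). Ndc80 was at 25.6 ± 6.49 and 33.8 ± 4.05 CPM (log2 change 0.41 with SE 0.16, adjusted p = 0.23), and its groups overlapped.

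Knl1 is the scaffold on which Bub1 and BubR1 assemble. It was at 1.69, 5.07, 2.08 and 3.39 CPM in control and 9.63, 4.39, 8.25, 9.08 and 13.6 CPM in DKO. DKO replicate 2 lay under control replicate 2, the only overlap (log2 change 1.55 with SE 0.37, adjusted p = 0.0465). In the MIS12 complex, which joins Knl1 and NDC80 to the centromere, Nsl1 rose from 3.54, 2.11, 1.53 and 2.17 CPM to 7.34, 8.99, 6.03, 4.53 and 9.79 CPM (log2 change 1.67 with SE 0.28, adjusted p = 0.0109). Its groups did not overlap, and DKO replicate 4 was the lowest of the DKO libraries. Its partner Mis12 was at 57.4, 55.9, 59.9 and 47.0 CPM in control and 58.8, 66.7, 57.6, 68.3 and 60.5 CPM in DKO, so the groups overlapped (log2 change 0.19 with SE 0.09, adjusted p = 0.341), and Dsn1 did not pass either (0.27, SE 0.11, adjusted p = 0.267).

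Cenpf, a large coiled-coil protein of the outer corona, had the largest log2 fold change of this group. It was at 1.75, 4.55, 1.57 and 1.86 CPM in control and 7.48, 8.91, 10.3, 10.6 and 17.6 CPM in DKO (log2 change 2.17 with SE 0.36, adjusted p = 0.00979). The groups did not overlap, and control replicate 2 stood above the other 3 control libraries. Cenpe, the kinesin that carries chromosomes to the metaphase plate, rose by 1.21 (SE 0.29, adjusted p = 0.0461). The SKA complex, which stabilises NDC80 on depolymerising microtubules, held no call: Ska1 differed by 1.74 on the log2 scale (SE 0.42, adjusted p = 0.0516), Ska3 by 0.98 (SE 0.29, adjusted p = 0.104) and Ska2 by 0.20 (SE 0.14, adjusted p = 0.534). For Ska2 the strand-summed count was 1.7 times the unstranded one.

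Cenpf, Nsl1, Nuf2 and Spc24 kept their calls in all 9 fits that left out a library, and Spc25 lost its call without control replicate 4 alone (adjusted p = 0.0589). Knl1 kept its call only without control replicate 2 or DKO replicate 2 (otherwise up to 0.109) and Cenpe only without control replicate 2 (otherwise up to 0.126). Ska1 passed without control replicate 2 (adjusted p = 0.0205) and Ska3 without control replicate 3 (0.0359).

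**Figure D2:**
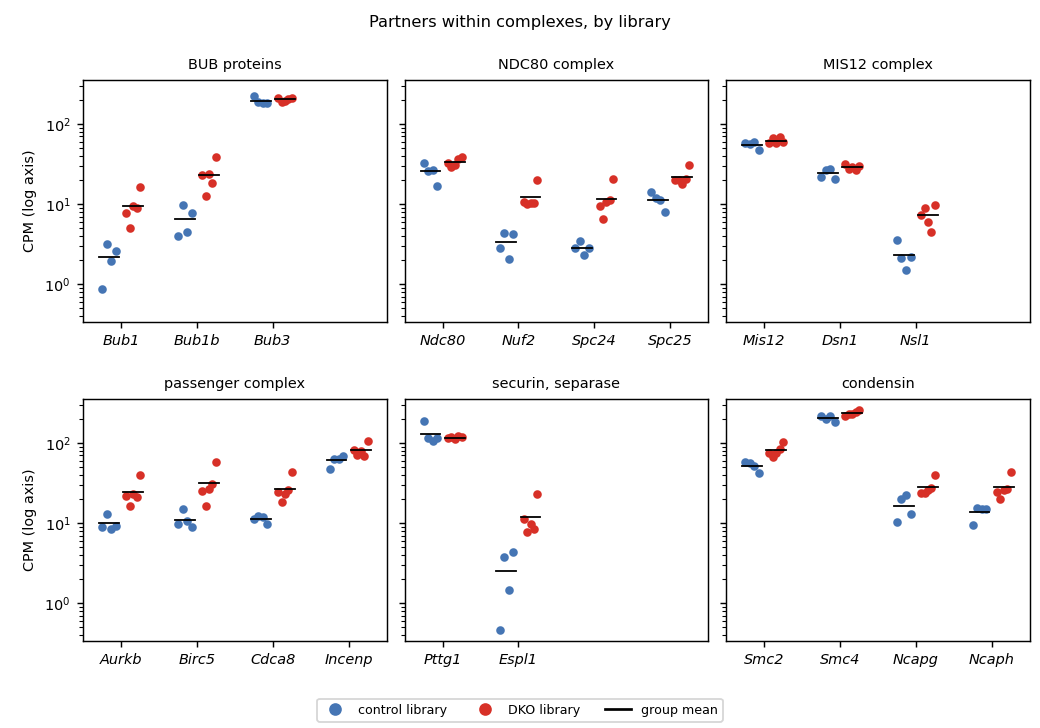
Each point is the CPM of 1 library on a log axis for genes of 6 complexes or protein groups, control in blue and DKO in red, with bars at the group means. Bub3, Mis12, Incenp, Pttg1 and Smc4 sit highest in their panels with overlapping groups, while Bub1, Nuf2, Spc24 and Nsl1 are separated.

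All 3 spindle genes rose. Nusap1, which bundles microtubules near chromosomes, was at 8.43, 15, 9.03 and 12.1 CPM in control and 30.2, 23.1, 34.5, 33.1 and 64.2 CPM in DKO (log2 change 1.74 with SE 0.29, adjusted p = 0.0104). Tpx2, the activator of Aurora A on the spindle, was at 7.90, 15.4, 8.76 and 10.5 CPM in control and 25.5, 23.9, 28.0, 26.7 and 52.5 CPM in DKO (log2 change 1.56 with SE 0.27, adjusted p = 0.0132). Spag5, the spindle protein astrin, was at 2.58, 8.19, 4.11 and 7.02 CPM in control and 17.3, 10.8, 15.7, 13.1 and 29.8 CPM in DKO (log2 change 1.66 with SE 0.37, adjusted p = 0.0369). In each, no library overlapped, control replicate 1 was the lowest control and DKO replicate 5 the highest DKO library. Nusap1 and Tpx2 kept their calls in all 9 fits that left out a library. Spag5 kept its call without control replicate 1, control replicate 2 or DKO replicate 2 and lost it in the other 6 (adjusted p = 0.0612 to 0.0833).

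Of the 4 genes that act at the exit from mitosis, Cdc20 and Ube2c rose, and neither separase nor its inhibitor securin passed the test. Cdc20, which turns on the anaphase-promoting complex, rose from 14.6 ± 0.945 to 33.3 ± 10.7 CPM (log2 change 1.2 with SE 0.20, adjusted p = 0.0104) and kept its call in all 9 fits that left out a library. Ube2c, a ubiquitin-conjugating enzyme of that complex, rose by 1.47 (SE 0.33, adjusted p = 0.037), a call that held only without control replicate 1, DKO replicate 2 or DKO replicate 5 (otherwise up to 0.107).

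Espl1 (chr15:102296266-102324357, plus strand, GRCm38) encodes separase, the protease that cuts cohesin. It was at 0.469, 3.78, 1.46 and 4.31 CPM in control and 11.2, 7.80, 9.64, 8.49 and 23.4 CPM in DKO. The groups did not overlap, and control libraries differed among themselves by more than those of most members. Its log2 fold change of 2.26 was the largest of all 59, yet with an SE of 0.55 the test was just missed (adjusted p = 0.0526), and without control replicate 1 it was passed (0.0278). Pttg1, the securin that holds separase inactive, was at 186.6, 117.1, 105.8 and 115.2 CPM in control and 115.6, 117.8, 111.9, 120.8 and 119.4 CPM in DKO. Apart from control replicate 1, all libraries lay within a narrow overlapping range (log2 change -0.15 with SE 0.14, adjusted p = 0.656), and without that library the log2 fold change was 0.04.

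Of the 5 cytokinesis genes, Cep55 and Ect2 rose. Cep55, which recruits the abscission machinery to the midbody, was at 3.93, 6.62, 6.90 and 5.89 CPM in control and 13.7, 11.2, 14.3, 16 and 28.5 CPM in DKO, with no overlap (log2 change 1.53 with SE 0.27, adjusted p = 0.0148). Ect2, the exchange factor that activates RhoA at the cell equator, rose from 13.7 ± 3.41 to 24.9 ± 4.21 CPM (log2 change 0.88 with SE 0.18, adjusted p = 0.0258). Anln, the ring scaffold anillin (log2 change 1.32 with SE 0.46, adjusted p = 0.175), and Prc1, the midzone bundler (0.35, SE 0.15, adjusted p = 0.277), did not pass, though neither overlapped between the groups. Prc1 overlaps Rccd1 on the other strand, with a strand-summed count 1.55 times the unstranded one.

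Racgap1, the partner that recruits Ect2 to the midzone, was at 414.2, 489.5, 490.3 and 484.8 CPM in control and 422.1, 420.5, 434.6, 430.8 and 488.5 CPM in DKO. Control replicate 1 sat with 4 DKO libraries and DKO replicate 5 with 3 control libraries, so the groups overlapped (log2 change -0.09 with SE 0.08, adjusted p = 0.67). Cep55 lost its call without control replicate 4 (adjusted p = 0.0539), and Ect2 kept its own without control replicate 1, control replicate 3 or DKO replicate 2 and lost it in the other 6 (0.0512 to 0.0815).

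Among the chromosome genes, Top2a, Ncaph, Mki67 and Smc2 rose. Top2a, the topoisomerase that untangles sister chromatids, was at 30.4, 61.7, 51.9 and 51.8 CPM in control and 88.4, 76, 96.4, 103.9 and 158 CPM in DKO, with no overlap (log2 change 1.10 with SE 0.24, adjusted p = 0.0346). Mki67, which keeps mitotic chromosomes apart and encodes the Ki-67 proliferation antigen, rose from 30.9 ± 10.2 to 59 ± 11.8 CPM (log2 change 0.94 with SE 0.22, adjusted p = 0.0468).

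Condensin I compacts mitotic chromosomes. Its subunit genes Smc2 (log2 change 0.65 with SE 0.13, adjusted p = 0.0263) and Ncaph (1.04, SE 0.23, adjusted p = 0.0369) rose, and Ncapg did not pass (0.78, SE 0.24, adjusted p = 0.121). Smc4, the ATPase paired with Smc2, was at 217.6, 200.3, 216.1 and 183.9 CPM in control and 217.5, 229, 228.4, 246.3 and 258.2 CPM in DKO. DKO replicate 1 lay just under control replicate 1, the highest control library (log2 change 0.22 with SE 0.08, adjusted p = 0.191). Smc2 kept its call in 4 of 9 fits that left out a library, Top2a in 3, Ncaph and Mki67 in 2 each, with adjusted p up to 0.075, 0.0853, 0.0821 and 0.13 otherwise. Each of the 4 lost it without control replicate 3, control replicate 4, DKO replicate 1, DKO replicate 3 or DKO replicate 4.

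**Figure D3:**
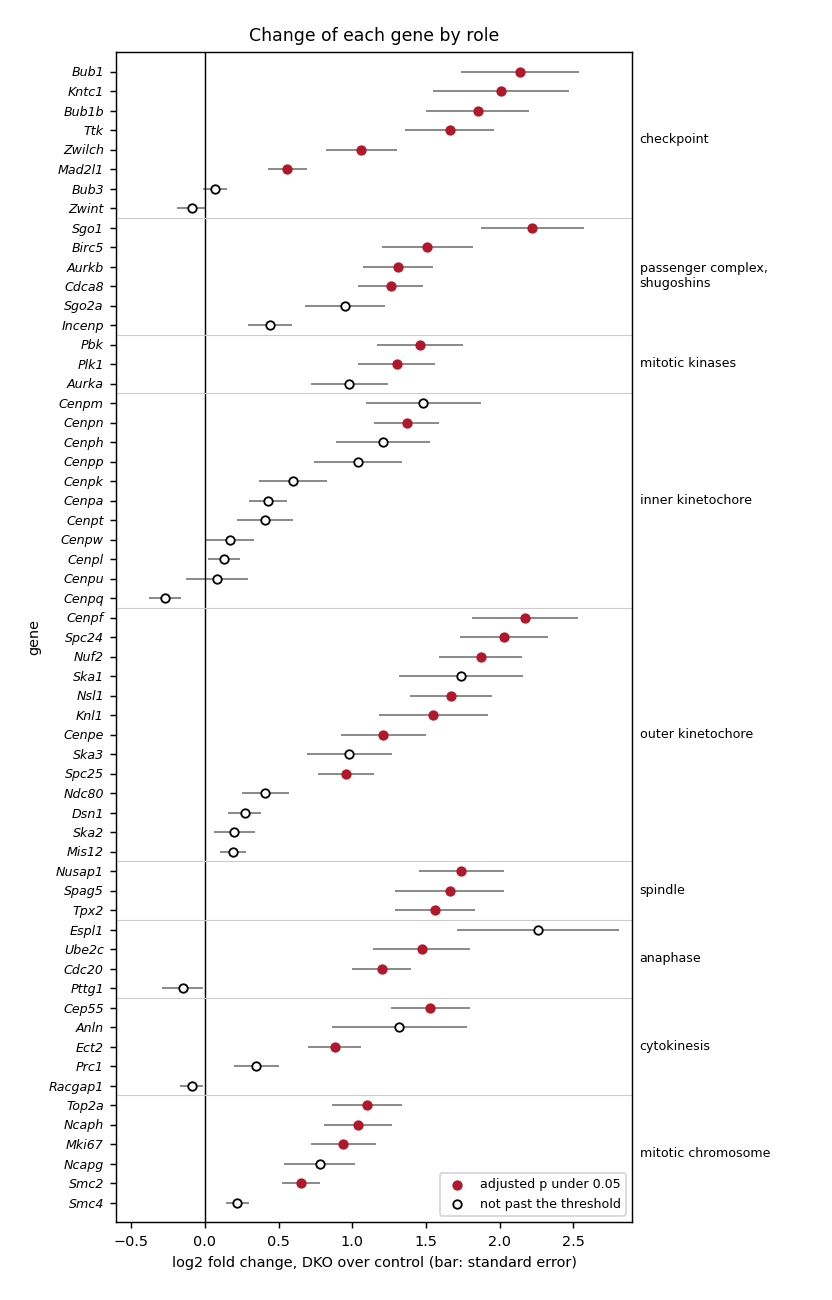
Log2 fold change (DKO over control) of each gene with its standard error as a bar, ordered by role; filled points have an adjusted p under 0.05. All 3 spindle genes and 6 of 8 checkpoint genes are filled, against 1 of 11 inner kinetochore genes.

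Counted over whole complexes, with the subunits from the related lists below added, 3 of 4 genes rose for NDC80, 3 of 4 for the passenger complex, 3 of 5 for condensin I (with Ncapd2, which rose), 2 of 3 for RZZ (with Zw10, which did not pass) and 1 of 4 for MIS12 (with Pmf1, which did not pass). Of the BUB proteins 2 of 3 rose, of the shugoshins 1 of 2, of the SKA complex 0 of 3, and of the centromere-associated network 1 of 16, of which 6 are in the related lists. A gene past the threshold beside one that is not does not show that they differ, and the difference between subunits was not tested.

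The members with the smallest changes were mostly those with the most message in control cells. On a per-length scale, as CPM per kilobase of exon, the 8 highest control levels belonged to Racgap1 (66.4), Pttg1 (65.6), Smc4 (39.2), Bub3 (27.8), Zwint (26.7), Mis12 (18.3), Cenpq (16.3) and Incenp (14), and none of the 8 rose. Smc2 (9.49) was the highest gene that rose, with Cdc20 (7.80) below it. On this scale 12 of the 29 higher members rose and 19 of the 30 lower ones. On the CPM scale, the 30 members under 10 CPM in control had a median log2 fold change of 1.48 and the 29 others 0.43. Among all tested genes the share that rose was 1.53% under 10 CPM and 1.15% at or above it. Fold change and control level share the control libraries, so their relation is given as a description.

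**Figure D4:**
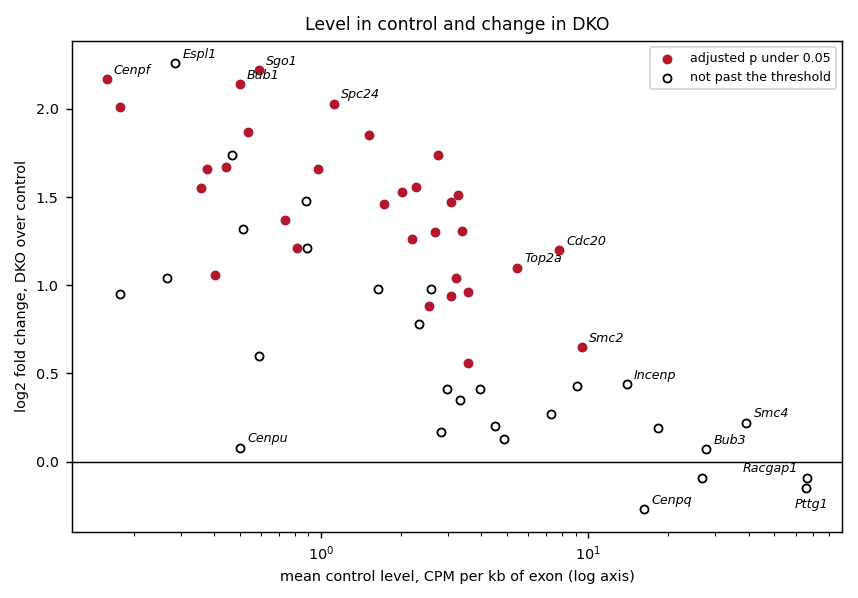
Mean control level in CPM per kilobase of exon (log axis) against log2 fold change for the 59 genes; filled points have an adjusted p under 0.05. The 8 genes to the right of Smc2 are all open and lie between -0.27 and 0.44.

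The DKO libraries were not alike in these genes. DKO replicate 5 was the highest of the 5 DKO libraries for 52 of 59 members (88.1%; 22.4% of all tested genes), and DKO replicate 2 the lowest for 42 (71.2%; 23.8%). The members' median log2 difference from the control mean was 1.752 in DKO replicate 5, 0.667 in DKO replicate 2 and 1.011 to 1.031 in the other 3. It ran from -0.157 to 0.2 over the 4 control libraries, of which replicate 2 was the highest for 28 members (47.5%; 14.8% of all genes). Summed over the 59 genes, the level was 1760 to 1933 CPM in control and 2071 to 2983 CPM in DKO, without overlap. The median coefficient of variation over members was 24.1% in control and 32.1% in DKO. Without DKO replicate 5, 21 members rose.

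Genes around the mitotic machinery that are not in the list were counted the same way, in 6 related lists. Among all tested genes 1.32% rose and 1.51% fell, which gives few calls or none in lists of this size. Of 20 other kinetochore genes 1 rose, Haspin, the histone kinase that places the passenger complex (35.6 ± 2.34 to 48.6 ± 5.90 CPM, log2 change 0.46 with SE 0.10, adjusted p = 0.0406), and the median log2 fold change was 0.36. By the same edgeR test 12 of the 20 had an unadjusted p under 0.05, against 2384 of all 14918 tested genes. Of 17 genes of the anaphase-promoting complex and its regulators (Fzr1, Fbxo5 and Ube2s among them) 0 were called by edgeR (4 at an unadjusted p under 0.05, 2 called by DESeq2, 1 by limma-voom), and the median was 0.09. Of 15 cohesin and further condensin genes 3 rose, with a median of 0.20. These were Esco2, the cohesin acetyltransferase (log2 change 2.10 with SE 0.31, adjusted p = 0.00517), Cdca5, the sororin that protects cohesion (1.62, SE 0.28, adjusted p = 0.0135), and Ncapd2.

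Of 21 genes of mitotic entry and its transcription 5 rose: Cdk1, Ccnb2, Ccna2, Mastl and Mybl2, with a median of 0.47. For Ccna2 the strand-summed count was 1.91 times the unstranded one, so its level is uncertain. Cdk1, the kinase that drives entry into mitosis, rose from 12.4 ± 1.56 to 26.6 ± 7.93 CPM (log2 change 1.12 with SE 0.20, adjusted p = 0.014). Its cyclin Ccnb1 was at 8.90 ± 2.21 and 16.6 ± 6.16 CPM and did not pass (0.91, SE 0.26, adjusted p = 0.0951). Of the 2 transcription factors that act with MuvB at late cell cycle promoters, Mybl2 rose (1.5, SE 0.32, adjusted p = 0.0345) and Foxm1 did not pass (1.19, SE 0.38, adjusted p = 0.137). Of the genes of that list that rose, Ccnb2 (1.57, SE 0.36, adjusted p = 0.0406) and Mastl (1.56, SE 0.34, adjusted p = 0.0352) had the largest log2 fold changes.

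Of 30 other spindle and centrosome genes 9 rose (Hmmr, Ckap2l, Tacc3, Plk4, Stil, Dlgap5, Kif11, Kif23 and Kif2c), with a median of 0.53. The largest rises were those of Stil, a centriole duplication factor (1.62, SE 0.38, adjusted p = 0.0447), and Kif2c, the microtubule depolymerase of centromeres (1.62, SE 0.33, adjusted p = 0.0266). Genes of DNA replication were counted beside them, and 8 of 24 S phase genes rose (Mcm5, Cdc45, Cdc6, Cdt1, Rrm1, Rrm2, Lig1 and Uhrf1). All 24 had a positive log2 fold change, the smallest 0.03 (Gins4, SE 0.11), and the median was 0.40. The strand-summed count was 92.24 times the unstranded one for Fen1 and 10.27 times for Gins2, so their levels are uncertain. Cdc6, which loads the replicative helicase, rose by 1.83 (SE 0.37, adjusted p = 0.0258) and Uhrf1, the maintenance methylation factor, by 1.61 (SE 0.26, adjusted p = 0.00949). DKO replicate 5 was the highest DKO library for 22 of these 24 genes as well. In none of these 6 lists did a gene fall. With control replicates 1 and 3 left out, the counts were 0 for other kinetochore genes, 2 for mitotic entry, 1 for spindle and centrosome and 3 for S phase. Leaving out control replicate 3, control replicate 4, DKO replicate 1 or DKO replicate 3 left 0 to 2 calls for mitotic entry, 1 to 3 for spindle and centrosome and 3 to 5 for S phase. DKO replicate 4 or DKO replicate 5 left 1 for mitotic entry and 3 or 5 for spindle and centrosome, and control replicate 2 left 2 for mitotic entry. Haspin lost its call without any 1 of control replicates 3 and 4 and DKO replicates 1, 3, 4 and 5, and 4 other kinetochore genes passed without control replicate 1.

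**Figure D5:**
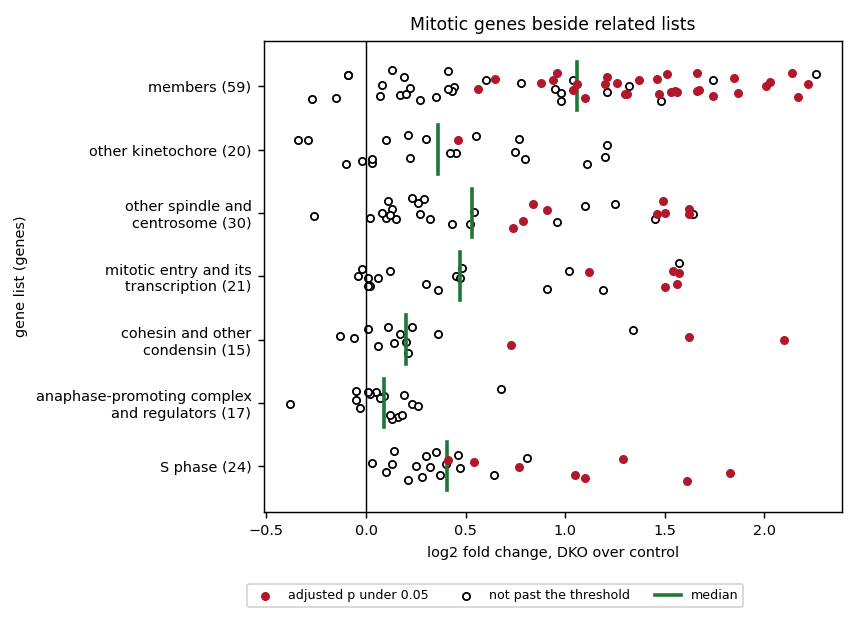
Log2 fold change (DKO over control) of every gene in the 59-gene list and in 6 related lists, with the median of each as a green bar; filled points have an adjusted p under 0.05. The 59 genes have a median of 1.06 and the other lists medians from 0.09 to 0.53.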

How the data were processed

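Poly(A) RNA of sorted CD8+ T cells was sequenced in 9 libraries (4 control, 5 DKO) from SMART-Seq v4 and Nextera Flex preparations, as the labels' protocols state. The deposited values are unnormalised whole-number read counts per gene laid out as STAR writes its gene counts. Trim Galore 0.6.0, STAR 2.7.8a and the mm10 build are named, with no order of steps, per the submitters' processing notes. Which annotation they counted on is not given in the sources used here. For every library the unstranded count column was used. The strand columns were near equal, so reads of overlapping genes on opposite strands cannot be told apart. Rows that name no gene were left out, so 67.0% to 74.0% of each library's reads entered. Identifiers were named with GENCODE M21 without version (55230 of 55471 matched). Counts were scaled with TMM (factors 0.987 to 1.03), filtered with filterByExpr (minimum count 10) and tested with edgeR 4.0.16 (glmQLFit robust, glmQLFTest) in R 4.3.3, with Benjamini-Hochberg adjustment over 14918 genes and a threshold of 0.05. The common biological coefficient of variation was 20.9%. CPM is a count scaled to 1000000 counts in genes, and per-length levels divide it by the union of exons. The test was checked on simulated data. Alternatives used DESeq2 1.42.0, limma-voom 3.58.1 and sva 3.50.0. Every limma-voom result was obtained with a quality weight for each library.

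The members and lists were chosen with earlier results of these data known. Libraries are described one by one for members with a log2 fold change of at least 1.5 past the threshold and for the largest and smallest change of each role. From the other lists, the genes past the threshold are named, with values for at most the 2 largest of each and for Cdk1, Ccnb1, Foxm1 and Mybl2. No library was a copy of another in its group by a chi-square test of counts, and libraries of different groups were not compared this way. Promoter letters are RefSeq's, GRCm38.p6.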

Additional observations from a re-analysis of the deposited data

Results flagged for a closer look

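The highest or lowest library of a group was set apart by Dixon's test at the 95% level in 22 of 122 groups, over 61 genes (the 59 members, Oxct1 and Bdh1). Chance gives about 1 in 20, or 6.1 groups, and the genes are not independent of each other.

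DKO replicate 5 was set apart as the highest DKO library in 14 of the 22. Its CPM was 39.8 for Aurkb, 2.35 for Cenpp, 20.2 for Nuf2, 30.8 for Spc25, 13.7 for Ska3, 52.5 for Tpx2 and 64.2 for Nusap1. For Espl1 it was 23.4, for Prc1 46.3, for Anln 19.4, for Racgap1 488.5, for Cep55 28.5, for Ncapg 39.6 and for Ncaph 43.9.

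Control replicate 1 was set apart in 6. It was the highest control library for Bub3 (223.2 CPM), Mad2l1 (37.6 CPM), Zwint (153.5 CPM) and Pttg1 (186.6 CPM), and the lowest for Racgap1 (414.2 CPM) and Ncaph (9.47 CPM). Control replicate 2 was the highest control library for Plk1 (7.69 CPM) and Cenpf (4.55 CPM).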

How the results depend on the processing

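Of the 31 genes that rose, 9 kept their call in all 9 fits that each left out 1 library (Cdc20, Cenpf, Cenpn, Nsl1, Nuf2, Nusap1, Sgo1, Spc24 and Tpx2) and 22 lost it at least once. The members called higher numbered 9 to 30 over those fits, and 0 were called lower in any setting run. DESeq2's test called 41 members, including all 31. Limma-voom, run with a quality weight for each library, called 31, of which 27 were shared, and 1 surrogate variable gave 35. The members' median log2 fold change stayed between 0.90 and 1.17 over all settings. Replicate numbers in the labels are shared by the groups, but same-numbered libraries did not deviate together (correlations -0.117 to 0.012). The check rests on few pairs, some with a control library that stood apart, so it cannot exclude a pairing. With the replicate block, 9 members were called, all among the 31, and 67 genes in all (28 higher, 39 lower). Only DKO has a replicate 5, so in this fit DKO replicate 5 adds nothing to the comparison of the groups. The drop from 31 to 9 therefore does not measure pairing alone.

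Over all genes, 422 were called, 1038 by DESeq2's test (495 higher, 543 lower), 996 by limma-voom (461 and 535), 732 with 1 surrogate variable (366 each way) and 179 to 749 without 1 library (80 to 322 higher, 96 to 427 lower). Without control replicates 1 and 3, chosen after seeing the data, 16 members were called, and the lists had 0 (other kinetochore), 2 (mitotic entry), 1 (spindle and centrosome) and 3 (S phase). DESeq2's test called 8 other kinetochore genes, 2 of the anaphase-promoting complex list, 10 of mitotic entry and 14 of spindle and centrosome. Limma-voom and 1 surrogate variable each called 4 other kinetochore genes and 1 of the anaphase-promoting complex list, and without a filter 0 other kinetochore genes were called. With the replicate block the counts were 0 for other kinetochore, 1 for cohesin, 0 for mitotic entry, 0 for spindle and centrosome and 2 for S phase. Without 1 library they ran from 0 to 4 (other kinetochore), 0 to 1 (anaphase-promoting complex), 0 to 6 (mitotic entry), 1 to 11 (spindle and centrosome) and 3 to 8 (S phase). The sign of the log2 change turned for Zwint (0.02 with 1 surrogate variable, 0.01 without control replicates 1 and 3, and -0.14 to 0.02 without 1 library, highest without control replicate 1), Pttg1 (0.02 with 1 surrogate variable, and -0.23 to 0.04 without 1 library, highest without control replicate 1) and Cenpu (-0.09 with summed strands, and -0.06 to 0.23 without 1 library, lowest without control replicate 2). The cause was not tested. Oxct1 and Bdh1 kept their calls in every setting run.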
